A study of Arabidopsis thaliana with 20 samples.

Results

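Class I TCP genes encode plant transcription factors of organ growth, and 10 of them were followed here through inflorescences of Arabidopsis thaliana with altered DVL/RTFL activity: TCP7, TCP8, TCP9, TCP14, TCP15, TCP19, TCP20, TCP21, TCP22 and TCP23. They were chosen by name and were 10 of the 37336 gene identifiers in the deposited table. TCP9 was listed at 0 in every library, and the other 9 members were among the 20223 genes that passed the filter on low values and were tested. DVL/RTFL genes encode small peptides that change organ shape when overexpressed. The 5 groups of plants each had 3 libraries: wild-type Columbia; dvl1-1D, whose DVL1 level is raised by a dominant allele; 35S:DVL8, in which the cauliflower mosaic virus 35S promoter, active in most plant tissues, drives DVL8; the quintuple mutant named for dvl1, which carries dvl1 with dvl8, dvl11, dvl19 and rtfl11; and the quintuple mutant named for rtfl9, which carries rtfl9 with dvl8, dvl11, dvl19 and rtfl11. Of their 5 mutated genes each, the quintuples had 4 in common. Each overexpression genotype appears under a single label, so each gene's overexpression rests on 1 genotype. The authors left out 5 of the 20 samples of the series, 1 per group, as outliers, which can narrow the spread within groups and lower p-values.

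TCP proteins bind DNA through the TCP domain, a noncanonical basic helix-loop-helix, and fall into class I and class II, which recognise related GC-rich sites. Class I members are known mostly as promoters of cell division and organ growth and act redundantly, so that single mutants are often close to wild type, whereas several class II members restrain growth. In flowers and inflorescence stems, class I proteins work together with gibberellin and cytokinin signalling: TCP14 and TCP15 set internode length, bind the O-fucosyltransferase SPINDLY and are held inactive by DELLA proteins.

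The libraries held between 22471893 and 36589877 reads assigned to genes. DVL1 was at 559.7 ± 46.0 RPKM (reads scaled to gene length and library total, mean ± SD, n = 3) in dvl1-1D and at 0 in the wild-type libraries, and DVL8 was at 161.7 ± 10.9 RPKM in 35S:DVL8 against 0.0509 ± 0.0116 in wild type. In their groups, 2 libraries stood apart, 35S:DVL8 replicate 2 and rtfl9 quintuple replicate 4, with 87 and 61 tested genes that differed over 2-fold from both other replicates on the log2(RPKM + 1) scale, against 5 to 39 genes in the other libraries. The floral regulators used as a check of the tissue summed to between 347.2 and 423.1 RPKM in all libraries, and of the meristem markers KNAT1 was at 67.2 to 78.9, STM at 45.5 to 60.7 and WUS at 4.89 to 7.12 RPKM over all libraries, while CLV3 was at or near 0. In these bulk samples, fewer cells of a type and less RNA per cell cannot be told apart.

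In wild type the members differed widely in level per length. TCP15 led with 45.0 ± 2.64 RPKM (SD, n = 3), and its libraries, at 48.0, 44.1 and 42.9, lay above those of every other member. TCP14 followed at 26.2 ± 1.21, TCP7 at 25.0 ± 0.366 and TCP21 at 22.7 ± 2.05 RPKM. The ranges of TCP14 and TCP7 overlapped, as did those of TCP7 and TCP21, so the order of these neighbours was not resolved. TCP8, at 16.0 ± 0.957 RPKM, and TCP22, at 15.7 ± 0.627, overlapped each other and lay below TCP21. TCP23 was at 4.98 ± 0.400 RPKM, TCP20 at 4.35 ± 0.209 and TCP19 at 3.15 ± 0.363, with no overlap between these neighbours. TCP15 was the highest member in all 5 groups and made up 25% to 29.3% of the summed RPKM of the members in each library. TCP19, with the lowest mean in all 5 groups, made up 1.52% to 2.55%, though its libraries overlapped those of TCP20 in dvl1-1D and the rtfl9 quintuple. The reads behind these values numbered 2131 to 3668 per library for TCP15 and 86 to 153 for TCP19, so the low members carry the larger counting error.

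**Figure D1:**
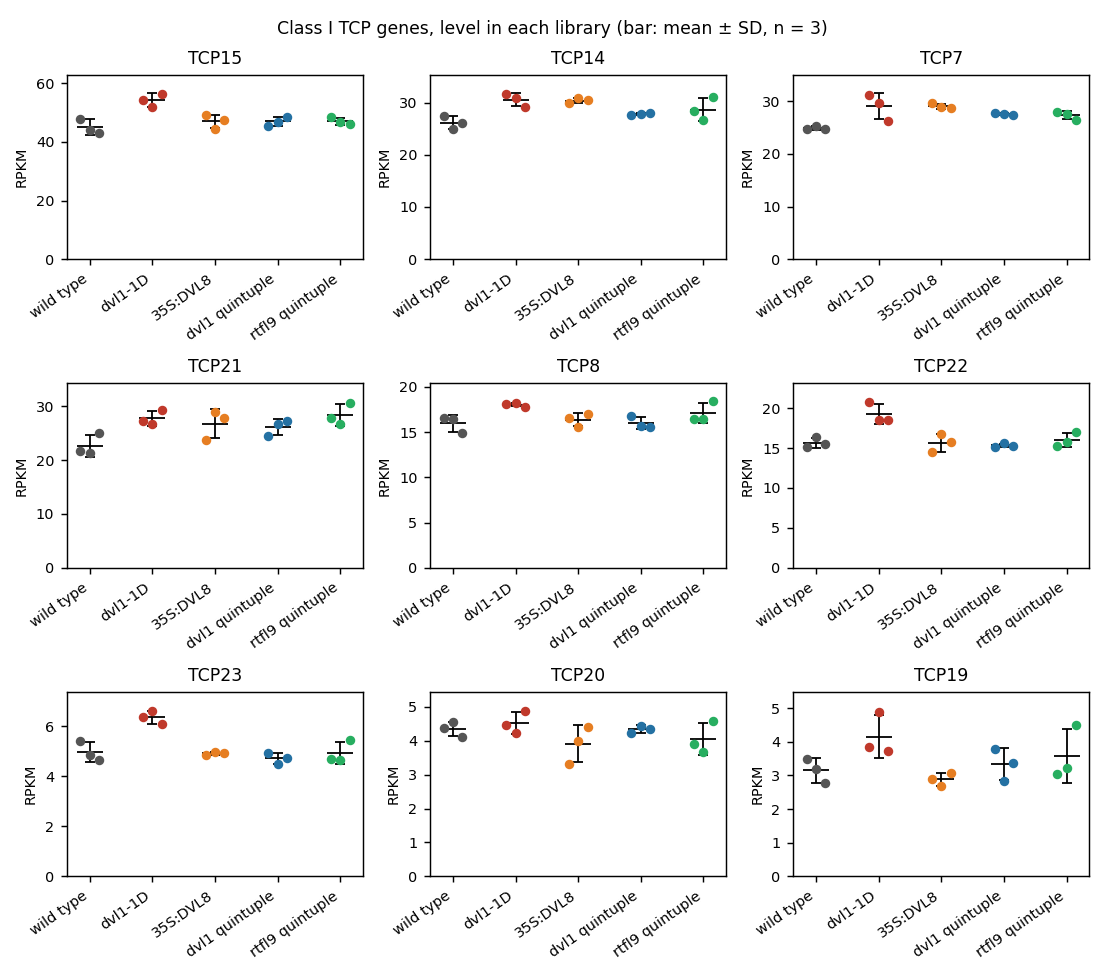
RPKM of the 9 class I TCP genes with a value above 0, in each library of the 5 groups; points are libraries and the black bars mean ± SD (n = 3), with each vertical axis starting at 0. TCP23 runs from 6.09 to 6.60 in dvl1-1D and no higher than 5.43 in the other groups, whereas TCP14 lies near 30 in both overexpression lines.

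TCP9 (AT2G45680, chr2:18820242-18821889 in TAIR10.1, minus strand), which binds the promoter of the salicylate gene ICS1 together with TCP8, was listed at 0 in all 15 libraries. Of its span, 98.6% lies under AT2G45685, a long noncoding RNA on the opposite strand that was also listed at 0. Per the name of the deposited table, counting ignored strand. Across the table, 544 of the 680 protein-coding genes with at least 95% of their span under other genes were listed at 0 in all libraries (80.0%), against 979 of the 19769 with no base under another gene (5.0%). The 0 of TCP9 is not read here as a level. TCP19 shares 12.9% of its span with AT5G51915, also listed at 0, and any effect of this on its level and rank was not tested. TCP6, TCP11 and TCP16, the class I genes outside the 10 members, fell below the filter: their group means were 0.216 to 0.463 RPKM for TCP6, 0.398 to 0.717 for TCP11 and 0.0242 to 0.151 for TCP16.

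In dvl1-1D, 7 of the 9 tested members were higher than in wild type and none was lower, by limma at an adjusted p of 0.05, where 30.8% of all tested genes were called (16.7% higher and 14% lower). At an unadjusted p under 0.05 the count was 8. The changes were small: the median over the 9 members was 0.26 on the log2(RPKM + 1) scale, beside 0.02 over all tested genes. In 8 of the 9 members every dvl1-1D library lay above every wild-type library, which was so for 26.2% of all tested genes. Summed over the members, wild type had 166.8, 161.4 and 160.7 RPKM and dvl1-1D 197.9, 191.6 and 192.4, a ratio of means of 1.19. The dvl1-1D sums lay above those of all other libraries.

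TCP15 (AT1G69690, chr1:26216009-26218071, plus strand), a regulator of internode and carpel growth, was at 54.2, 51.8 and 56.5 RPKM in dvl1-1D against 48.0, 44.1 and 42.9 in wild type. All 3 dvl1-1D libraries lay above all 3 of wild type, and the change was 0.26 ± 0.05 (SE, limma adjusted p = 0.00152). TCP14 (AT3G47620, chr3:17558793-17561259, plus strand), its closest functional partner, which also promotes seed germination, was at 31.6, 30.8 and 29.2 RPKM against 27.4, 25.0 and 26.0. The groups did not overlap (0.22 ± 0.05, limma adjusted p = 0.0061). TCP8 (AT1G58100, chr1:21512332-21514189, minus strand), which acts with TCP14 and TCP15 in immunity, was at 18.1, 18.2 and 17.8 RPKM against 16.6, 16.5 and 14.9. The groups again did not overlap, and the change was the smallest of the 7 called (0.17 ± 0.06, limma adjusted p = 0.0342). The TCP8 call was lost with median-of-ratios scaling (adjusted p = 0.05), with the replicate number as a block (adjusted p = 0.0535) and without wild-type replicate 3 (0.12, adjusted p = 0.148) or any of the dvl1-1D libraries (adjusted p of 0.0812, 0.0836 and 0.0601 without replicates 1, 2 and 3).

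TCP7 (AT5G23280, chr5:7842607-7844649, plus strand), which acts redundantly with other class I genes in leaf growth, was at 31.2, 29.7 and 26.3 RPKM in dvl1-1D against 24.7, 25.4 and 24.8 in wild type. The dvl1-1D libraries were the more scattered, yet all lay above wild type (0.21 ± 0.05, limma adjusted p = 0.00615). TCP21 (AT5G08330, chr5:2680401-2681993, plus strand), also named CCA1 HIKING EXPEDITION for its binding to the promoter of the clock gene CCA1, was at 27.3, 26.8 and 29.4 RPKM against 21.7, 21.4 and 25.1. No library overlapped (0.28 ± 0.08, limma adjusted p = 0.0154), and the call was lost without wild-type replicate 1 (adjusted p = 0.0597), wild-type replicate 2 (adjusted p = 0.064) or dvl1-1D replicate 3 (adjusted p = 0.0595).

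TCP22 (AT1G72010, chr1:27107558-27109275, plus strand), an activator of CCA1 in seedlings, was at 20.7, 18.5 and 18.5 RPKM in dvl1-1D against 15.1, 16.4 and 15.5 in wild type. The lowest dvl1-1D library lay above the highest of wild type (0.28 ± 0.06, limma adjusted p = 0.00359). TCP23 (AT1G35560, chr1:13115824-13117235, minus strand), which with TCP8, TCP15, TCP21 and TCP22 controls leaf development redundantly, was at 6.35, 6.60 and 6.09 RPKM against 5.42, 4.85 and 4.65. It showed the largest change of the 7 called (0.30 ± 0.07, limma adjusted p = 0.00482). Its dvl1-1D libraries lay above all 12 libraries of the other groups, as did those of TCP15 and TCP22. The share of all tested genes with this pattern was not computed. Of all tested genes, 26.2% had every dvl1-1D library above every wild-type library, and 25.6% above every 35S:DVL8 library.

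TCP19 (AT5G51910, chr5:21094547-21095891, minus strand), which acts in leaf senescence, was at 3.85, 4.89 and 3.72 RPKM in dvl1-1D against 3.50, 3.19 and 2.77 in wild type. The groups did not overlap, but the change of 0.31 ± 0.13 missed the threshold (limma adjusted p = 0.0808); it passed with weights for library quality (adjusted p = 0.0289) and without the libraries that stood apart (adjusted p = 0.0427). TCP20 (AT3G27010, chr3:9957376-9958945, minus strand), which binds cyclin and nitrate-assimilation promoters, was at 4.48, 4.23 and 4.88 RPKM against 4.37, 4.54 and 4.13. These groups overlapped (0.05 ± 0.09, limma adjusted p = 0.724), with an interval of the difference from -0.14 to 0.24.

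**Figure D2:**
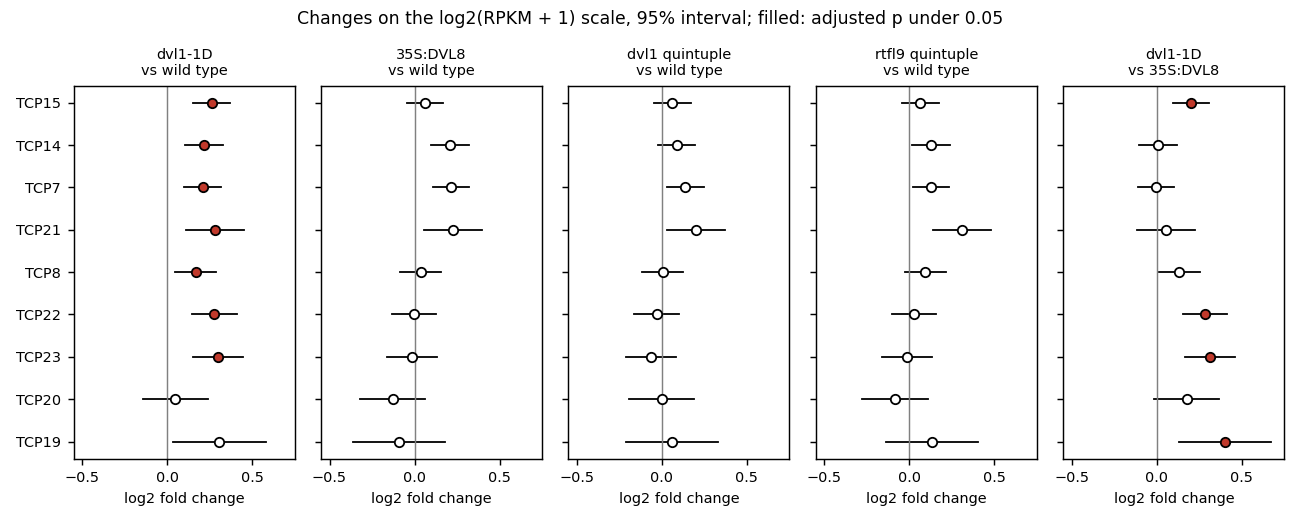
Log2 fold changes of the 9 tested members on the log2(RPKM + 1) scale in 5 comparisons, with lines for the 95% interval and filled points for a limma adjusted p under 0.05. The dvl1-1D panel has 7 filled points, the panels of the other lines against wild type have none, and the panel of the overexpression lines against each other has 4.

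In 35S:DVL8, none of the 9 tested members passed limma's adjusted threshold against wild type, 3 had an unadjusted p under 0.05, and 0.138% of all tested genes were called. The median change of the members was 0.04, beside -0.0040 for all tested genes. TCP7 was at 29.6, 28.9 and 28.8 RPKM in this line, above all wild-type libraries (0.21 ± 0.05, limma adjusted p = 0.0808). TCP14 was at 29.9, 30.8 and 30.4 RPKM, again above all of wild type (0.21 ± 0.05, limma adjusted p = 0.0913). These were the only members whose libraries all lay above wild type, and 7.03% of all tested genes did so. With weights for library quality TCP7 and TCP14 passed (adjusted p = 0.0373 and 0.0304). TCP21 was at 23.7, 28.9 and 27.8 RPKM and overlapped wild type (0.23 ± 0.08, limma adjusted p = 0.275). The remaining members lay between -0.13 and 0.06 on the log2 scale, and their libraries overlapped those of wild type. The summed RPKM of the members was 174.4 to 179.6 in 35S:DVL8, above the wild-type range of 160.7 to 166.8, a ratio of means of 1.086.

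Set directly against each other, the overexpression lines differed in 4 of the 9 members by limma, each higher in dvl1-1D, with 5 at an unadjusted p under 0.05 and 32.4% of all tested genes called (18.6% higher in dvl1-1D). Both lines are compared with the same wild-type libraries above, so their changes from wild type are not independent of each other. TCP22 was at 14.5, 16.8 and 15.7 RPKM in 35S:DVL8, below all dvl1-1D libraries (0.28 ± 0.06, limma adjusted p = 0.00324). TCP23, at 4.86, 4.95 and 4.91 RPKM in 35S:DVL8, differed by 0.31 ± 0.07 (limma adjusted p = 0.00351). TCP15, at 49.0, 44.5 and 47.4 RPKM in 35S:DVL8, differed by 0.20 ± 0.05 (limma adjusted p = 0.00778). For all 3 genes no library of one line reached the range of the other. Of the 9 members, 5 had every dvl1-1D library above every 35S:DVL8 library, as did 25.6% of all tested genes. Besides these 3 genes they were TCP19 and TCP8, the latter not called (0.13, limma adjusted p = 0.0863). TCP19, at 2.89, 2.69 and 3.09 RPKM in 35S:DVL8, differed by 0.40 ± 0.13 (limma adjusted p = 0.0266), without overlap; this call was lost without dvl1-1D replicate 2 (0.30, adjusted p = 0.116) and without 35S:DVL8 replicate 1 (adjusted p = 0.059) or replicate 2 (adjusted p = 0.0773). TCP7 and TCP14 were not called: the difference was -0.0046 for TCP7, with a 95% interval from -0.11 to 0.10, and 0.0073 for TCP14, with an interval from -0.10 to 0.12.

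The promoters of TCP15, TCP23 and TCP19, which differed between the overexpression lines, were read from the TAIR10.1 genome, as the 250 bases before the start of each RefSeq gene, as a look at the sequence before genes that were higher in dvl1-1D than in 35S:DVL8. TCP15 (chr1:26215759-26216008, plus strand), TCP23 (chr1:13117236-13117485, minus strand) and TCP19 (chr5:21095892-21096141, minus strand) are given 5′ to 3′ on the strand of the gene, with capitals for the TCP-type core TGGGCC or its reverse complement.
TCP15: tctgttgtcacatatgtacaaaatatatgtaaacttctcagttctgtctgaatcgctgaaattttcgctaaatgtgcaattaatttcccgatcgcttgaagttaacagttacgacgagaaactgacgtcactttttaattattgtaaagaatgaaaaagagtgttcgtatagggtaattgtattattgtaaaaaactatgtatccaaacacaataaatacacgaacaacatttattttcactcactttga
TCP23: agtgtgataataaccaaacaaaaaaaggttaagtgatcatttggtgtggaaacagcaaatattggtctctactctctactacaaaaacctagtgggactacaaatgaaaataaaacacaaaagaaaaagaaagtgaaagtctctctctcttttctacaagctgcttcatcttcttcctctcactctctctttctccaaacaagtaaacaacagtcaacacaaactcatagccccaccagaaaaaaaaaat
TCP19: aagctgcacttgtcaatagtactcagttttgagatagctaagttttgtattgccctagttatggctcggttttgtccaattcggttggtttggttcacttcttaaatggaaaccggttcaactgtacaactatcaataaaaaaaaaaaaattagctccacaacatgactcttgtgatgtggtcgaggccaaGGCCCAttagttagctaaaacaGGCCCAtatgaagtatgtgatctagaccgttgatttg
Of the 9 members whose promoters were searched, TCP19 alone held TGGGCC in this window, at 59 and 37 bases before the start and on the opposite strand both times, and 13.66% of the 27431 promoters of the same length held it on either strand. The class I site GTGGGNCC and the class II site GTGGNCCC, which can overlap TGGGCC, were in none of the 9 and in 1.09% and 0.67% of promoters. The G-box CACGTG was in TCP9 alone (6.49% of promoters), the CCA1 binding site AAAAATCT in TCP14 alone (6.68%), and the evening element AAATATCT (4.79%) and the telo box AAACCCTA (4.49%) in none. All motifs were searched on both strands. TCP15 and TCP23 thus had none of the 7 motifs in these bases.

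Against wild type, neither quintuple had a member past limma's adjusted threshold. The dvl1 quintuple had 2 members at an unadjusted p under 0.05 (0.0297% of all tested genes called), and the rtfl9 quintuple had 3 (1.23% called). The median change of the members was 0.06 in the former and 0.09 in the latter, beside 0.01 and 0.02 over all tested genes. Every library of the dvl1 quintuple lay above every wild-type library in 2 members and in 9.3% of all tested genes. For the rtfl9 quintuple these were 2 members and 12%. TCP7 was at 27.8, 27.5 and 27.4 RPKM in the dvl1 quintuple; its rtfl9 quintuple values were 27.9, 27.7 and 26.6. Both ranges lay above wild type, with changes of 0.14 ± 0.05 (limma adjusted p = 0.501) and 0.13 ± 0.05 (limma adjusted p = 0.238). The 3 wild-type libraries were thus the lowest of all 15 for TCP7, a pattern that 98 of the 20223 tested genes showed (0.485%), with 62 genes (0.307%) showing the opposite. All 4 comparisons with wild type share those libraries.

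TCP21 was at 24.5, 26.7 and 27.3 RPKM in the dvl1 quintuple (0.20 ± 0.08, limma adjusted p = 0.564) and at 27.8, 26.7 and 30.7 in the rtfl9 quintuple (0.31 ± 0.08, limma adjusted p = 0.0815). The dvl1 quintuple overlapped wild type and the rtfl9 quintuple did not; without the libraries that stood apart, the latter change was 0.25 (adjusted p = 0.183). TCP14 was at 27.6, 27.8 and 28.0 RPKM in the dvl1 quintuple (0.09 ± 0.05, limma adjusted p = 0.728), just above wild type. In the rtfl9 quintuple it was at 28.4, 26.6 and 31.0 RPKM (0.13 ± 0.05, limma adjusted p = 0.262) and overlapped wild type. Replicate 4 of the rtfl9 quintuple, which stood apart, was the highest of its group in 7 of the 9 members, TCP15 and TCP7 excepted, and had the largest summed level, at 184.1 RPKM against 175.8 and 171.4. TCP8, TCP15, TCP19, TCP20, TCP22 and TCP23 lay between -0.09 and 0.13 in both quintuples, and their libraries overlapped those of wild type. The quintuples did not differ from each other in any member by limma, with 0 at an unadjusted p under 0.05 and 0.0148% of all tested genes called. The widest of these differences was -0.11 for TCP21, with a 95% interval from -0.28 to 0.06.

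**Figure D3:**
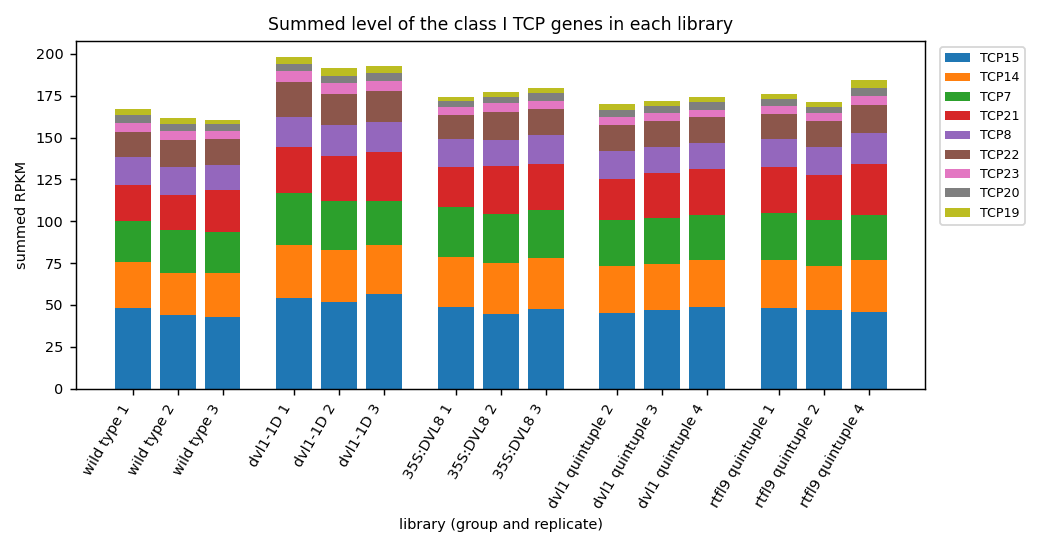
Summed RPKM of the members in each library, stacked by gene, for the 15 libraries in order of group and replicate. Wild type stands at 160.7 to 166.8, dvl1-1D at 191.6 to 197.9 and the other groups between 170.2 and 184.1, with TCP15 the largest block throughout.

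Averaged over both overexpression lines, 4 of the 9 members were higher than in the mean of both quintuples by limma, none was lower, 5 had an unadjusted p under 0.05, and 32% of all tested genes were called (14.8% higher). These were TCP23 (0.18 ± 0.05, limma adjusted p = 0.012), TCP22 (0.14 ± 0.04, limma adjusted p = 0.0238), TCP14 (0.11 ± 0.04, limma adjusted p = 0.037) and TCP15 (0.10 ± 0.04, limma adjusted p = 0.0456). The libraries of both sides overlapped in all 4, and 4.41% of all tested genes showed no overlap. For TCP23 the 35S:DVL8 libraries, at 4.86 to 4.95 RPKM, lay within the quintuples' range of 4.50 to 5.43, and the dvl1-1D libraries, at 6.09 to 6.60, above it. The mean of TCP22 was 19.3 RPKM in dvl1-1D and 15.7 in 35S:DVL8, against 15.3 and 16.0 in the quintuples. That of TCP15 was 54.2 and 47.0, against 46.9 and 47.0. For TCP14 both overexpression means were higher, at 30.6 and 30.4 against 27.8 and 28.7. The count fell to 1, TCP23, without dvl1-1D replicate 1, and to 2 without 35S:DVL8 replicate 2 or 3, dvl1 quintuple replicate 2 or 3, or rtfl9 quintuple replicate 1 or 2. Over 21 alternatives, TCP23 passed in 21, TCP22 in 18, TCP14 in 12 and TCP15 in 11. A test of any difference among the 5 groups called 6 members, TCP7, TCP14, TCP15, TCP21, TCP22 and TCP23, with 7 at an unadjusted p under 0.05 and 35.3% of all tested genes called.

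The members fell into looser and closer pairs when their log2 levels were followed over the 15 libraries. TCP22 and TCP23 were each other's closest member (Pearson's r of 0.836), as were TCP8 and TCP19 (0.826) and TCP7 and TCP14 (0.727). TCP15 was closest to TCP23 (0.741), TCP21 to TCP14 (0.636) and TCP20 to TCP22 (0.5). The lowest of all values was between TCP7 and TCP20 (-0.322). Taken within groups, as deviations from the group means, the highest value was between TCP19 and TCP23 (0.889). TCP23 was also at 0.759 with TCP14 and at 0.751 with TCP8. Of the closest pairs above, the value for TCP8 and TCP19 was 0.803 and that for TCP20 and TCP22 0.542. It was 0.185 for TCP22 and TCP23, 0.112 for TCP7 and TCP14, 0.331 for TCP14 and TCP21 and 0.0090 for TCP15 and TCP23, so these pairs were alike mainly across the groups. Among all tested genes, the 3 most like TCP15 were PAR2 (0.911), an atypical helix-loop-helix protein of shade responses, the meristem homeobox gene STM (0.898) and WRKY12 (0.898), a repressor of pith wall thickening. The 3 most like TCP14 were FUR1 (0.889), a nucleoside transporter, AT5G44578 (0.873) and AT2G46780 (0.867). These values describe libraries that share groups.

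Genes for known partners of class I TCP proteins changed in dvl1-1D in both directions. Of 11 tested, 6 were higher and 2 lower by limma, beside the 30.8% of all tested genes that were called. The DELLA genes, whose proteins restrain gibberellin responses, split. GAI was at 30.7, 29.2 and 30.3 RPKM in dvl1-1D against 22.8, 24.8 and 23.6 in wild type (0.33 ± 0.05, limma adjusted p = 0.000157). RGL2 was at 25.9, 26.8 and 30.6 RPKM against 39.4, 39.1 and 39.8 (-0.50 ± 0.07, limma adjusted p = 0.000135), so the groups did not overlap in either gene. RGA, the other main DELLA gene of the shoot, rose by 0.30 ± 0.04 (limma adjusted p = 0.000145), and NPR1, the salicylate receptor and cofactor, by 0.32 ± 0.10 (limma adjusted p = 0.0199). RGL1 was lower, and SPY, TPL, a corepressor, and SRFR1, a negative regulator of immunity, were higher. No partner passed limma's adjusted threshold in 35S:DVL8, with 1 at an unadjusted p under 0.05, or in the quintuples, with 0 for dvl1 and 1 for rtfl9. Between the overexpression lines 5 of the 11 partners differed, beside 32.4% of all tested genes. GAI, SPY, RGA and TPL were higher in dvl1-1D and RGL2 lower.

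Genes reported as class I TCP targets numbered 21, of which 19 were tested. In dvl1-1D 4 were higher and 5 lower, where 16.7% of all tested genes were higher and 14% lower, with a median change of -0.02 beside 0.02 over all tested genes. NRT1.1, a nitrate transporter and sensor, was at 7.60, 7.68 and 7.26 RPKM against 5.19, 5.43 and 4.86 in wild type (0.47 ± 0.12, limma adjusted p = 0.00885). The auxin-induced SAUR63 was at 1.94, 0.859 and 1.16 RPKM against 2.12, 2.51 and 1.84 (-0.47 ± 0.16, limma adjusted p = 0.0356). Its groups overlapped, unlike those of NRT1.1. PRE1, a helix-loop-helix promoter of cell elongation, was higher (0.35 ± 0.12, limma adjusted p = 0.0449), and the cyclin gene CYCA2;3 was lower (-0.33 ± 0.08, limma adjusted p = 0.00591). CYCB1;1, a cyclin of dividing cells, IAA3, an auxin-response repressor, and PCNA2, a replication factor, were also lower, and KNAT2 and CCA1 were higher. No target passed limma's adjusted threshold in the other 3 lines against wild type, with 2 in 35S:DVL8 and, of the quintuples, 1 in dvl1 and 2 in rtfl9 at an unadjusted p under 0.05.

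The class I site GTGGGNCC, searched on both strands in the 1000 bases before each gene, was in 4 of the 21 target genes and in 673 of 27431 genes (2.45%). The targets were listed in part because such sites are known in them. The matches, in capitals within 30 bases of TAIR10.1 on the strand of the gene, lay 35 bases before the start of RBR1 (chr3:3919376-3919405, minus strand), 150 before CCA1 (chr2:19245430-19245459, plus strand), 56 before ICS1 (chr1:28070228-28070257, plus strand) and 95 before NIA1 (chr1:29239561-29239590, minus strand).
RBR1: tcgtattaaggGTGGGCCCaatcataactc
CCA1: gatcttaagtaGGTCCCACtagatcaagat
ICS1: cttcaattttaGTGGGCCCctgctacatca
NIA1: gatctaggtagGTGGGTCCctctactcagc
Of these 4, CCA1 was called in dvl1-1D. It was at 25.9, 24.5 and 24.3 RPKM against 20.7, 21.1 and 20.5 in wild type, without overlap (0.25 ± 0.05, limma adjusted p = 0.00358). RBR1, the retinoblastoma-related brake on the cell cycle, was at 27.4 ± 1.72 RPKM against 29.4 ± 2.19 (-0.09 ± 0.06, limma adjusted p = 0.231). The salicylate synthesis gene ICS1 was at 5.63 ± 0.945 against 5.71 ± 0.216 RPKM (-0.03 ± 0.26, limma adjusted p = 0.947), and the nitrate reductase gene NIA1 at 36.4 ± 2.56 against 33.7 ± 2.37 (0.11 ± 0.15, limma adjusted p = 0.623). All 3 overlapped wild type.

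**Figure D4:**
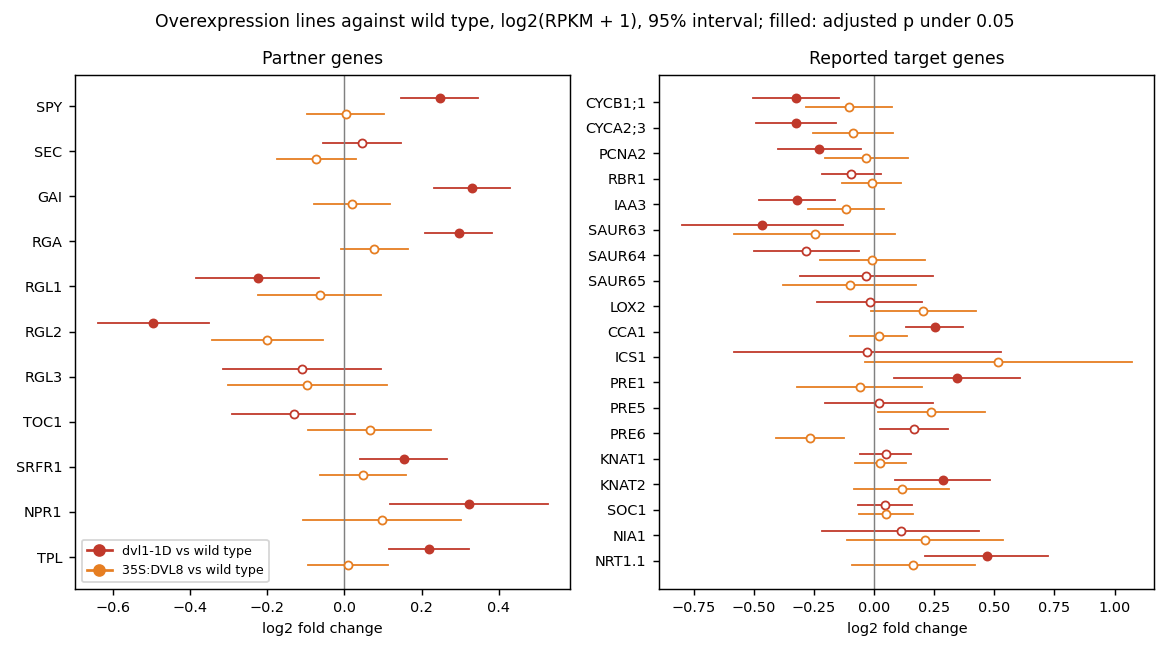
Log2 fold changes against wild type, on the log2(RPKM + 1) scale, of the tested partner genes (left) and reported target genes (right) in dvl1-1D (red) and 35S:DVL8 (orange), with 95% intervals and filled points for a limma adjusted p under 0.05. In dvl1-1D GAI (0.33) and RGL2 (-0.50) lie on opposite sides of 0, and no orange point is filled.

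Clock genes, of which CCA1 is also listed as a target and TOC1 as a partner, changed in dvl1-1D, where TCP21 was higher. Of 12 tested, 3 were higher, CCA1 included, and 6 lower in dvl1-1D by limma, where 30.8% of all tested genes were called. None passed in the other lines against wild type, where 0.138% (35S:DVL8), 0.0297% (dvl1 quintuple) and 1.23% (rtfl9 quintuple) of all tested genes were called, with 1 at an unadjusted p under 0.05 in the rtfl9 quintuple and 0 in the others. LHY, the morning partner of CCA1, was at 44.9, 42.2 and 38.5 RPKM in dvl1-1D against 10.8, 10.6 and 10.2 in wild type (1.89 ± 0.21, limma adjusted p = 2.92e-05). PRR5, expressed later in the day, was at 6.63, 6.96 and 6.85 RPKM against 20.5, 17.8 and 19.1 (-1.36 ± 0.16, limma adjusted p = 5.59e-05). Neither gene's groups overlapped. CCR2, an evening output gene, was lower (-1.11 ± 0.08, limma adjusted p = 2.77e-06) and RVE8, a morning activator, higher (0.71 ± 0.10, limma adjusted p = 0.000145). Replicate 4 of the rtfl9 quintuple, which stood apart, was at 18.5 RPKM for LHY against 8.11 and 8.24 in the other replicates. TOC1, whose protein binds TCP21, was at 12.1 ± 0.731 against 13.4 ± 1.32 RPKM (-0.13 ± 0.07, limma adjusted p = 0.202). The part of the clock genes in the TCP differences was not tested.

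Of the 11 class II TCP genes, 8 were tested, and in dvl1-1D 1 was higher and 3 were lower by limma, where 16.7% of all tested genes were higher and 14% lower. Their summed level was 64.98 to 66.95 RPKM in dvl1-1D and 79.71 to 83.5 in wild type, so the classes differed in the direction of their sums. Single class II genes went both ways. Every dvl1-1D library lay above every wild-type library in 3 of the 11 and below in 4. Of all tested genes, 26.2% and 20.9% did so. TCP12 and TCP18, which were not tested, were among those above. TCP4, a target of the microRNA miR319, was at 8.65, 9.35 and 10.5 RPKM against 16.6, 17.0 and 15.2 (-0.72 ± 0.11, limma adjusted p = 0.000344). TCP1 (-0.71 ± 0.13, limma adjusted p = 0.00122) and TCP2 (-0.41 ± 0.06, limma adjusted p = 0.000365) were also lower, and TCP5 was higher (0.36 ± 0.13, limma adjusted p = 0.0456), at 1.21 ± 0.143 against 0.726 ± 0.158 RPKM. No class II gene passed limma's adjusted threshold in the other lines against wild type, with 4 at an unadjusted p under 0.05 in 35S:DVL8 and, of the quintuples, 0 in dvl1 and 1 in rtfl9.

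Of the 25 tested markers of cell types and tissues, 7 were called in dvl1-1D by limma (28%), a share near the 30.8% of all tested genes. Of the 3 meristem markers tested, 1, STM, was higher (0.31 ± 0.05, limma adjusted p = 0.000393), and the summed RPKM of the list was 130.4 to 144.4 against 119.4 to 128.9 in wild type. Of the 4 markers of dividing cells, 1, CDKB2;1, was lower (-0.33 ± 0.05, limma adjusted p = 0.000262), with sums of 99.57 to 111.8 against 117.2 to 127.6 RPKM. For mature pollen 2 of 4 markers were higher, led by TIP1;3 (0.65 ± 0.14, limma adjusted p = 0.00331), with sums of 472.5 to 641.6 against 413.5 to 460.3. For the tapetum 1 of 5, GRP17, was higher (0.75 ± 0.10, limma adjusted p = 0.00015), with sums of 736.5 to 907.4 against 492.3 to 593.5 RPKM. GRP17, at 767.8 ± 83.6 against 454.9 ± 42.2 RPKM, made up most of that sum, and the median change of the list was -0.14: A9 (-0.15), AMS (-0.18), MS1 (-0.14) and TDF1 (-0.03) were not called, and only the AMS libraries all lay below wild type. The sums of the meristem, pollen and tapetum lists did not overlap wild type and lay above it, and that of dividing cells lay below. In the pollen list VGD1, its highest gene at 339.1 ± 49.4 against 286.3 ± 17.5 RPKM, was not called (0.24, limma adjusted p = 0.185). ACA9 was not called either (0.13, limma adjusted p = 0.492), and both genes overlapped wild type. In the meristem list KNAT1 (0.05, limma adjusted p = 0.503) and WUS (0.08, limma adjusted p = 0.628) were not called and overlapped wild type. Of the 6 floral markers 1, AG, was higher (0.37 ± 0.06, limma adjusted p = 0.00043), and of the 3 markers of green tissue 1, LHCB2.1 (0.24 ± 0.08, limma adjusted p = 0.0413), while both sums overlapped wild type. The part of these cell types in the TCP differences was not tested.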

How the data were processed

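RNA of inflorescences was sequenced as read pairs on an Illumina NovaSeq, per the labels' protocols; these name both inflorescences and flowers after anthesis, so the mix of flower stages is uncertain. The deposited values are RPKM per gene, computed by the authors, without regard to strand, as the name of the table states. Cutadapt, HISAT2 and HTSeq are named, without versions, in the submitters' processing notes. For the genome build, not given in the sources used here, TAIR10.1 was taken for names and coordinates, and to it 37051 of 37336 identifiers were matched. AT5G08330 carries the symbol TCP11 in RefSeq and TCP21 among its synonyms, and TCP21 is used here. Library depth was recovered from the steps of the RPKM values: for 21996 of 29710 matched genes above 0 (74.0%), and for all 93 listed genes, values in all libraries were whole reads within 0.005 of a read.

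The tests ran over the 20223 genes that reached an RPKM of 1 in 3 or more libraries. They used limma (3.58.1, R 4.3.3) on log2(RPKM + 1) values, fitted once over all 15 libraries with group means and a trended variance. Fold changes on that scale understate those of low genes. P-values are two-sided and Benjamini-Hochberg adjusted over all genes of a comparison (threshold 0.05), and 7 comparisons and a test of any difference were made. The replicates are independent biological ones per the series text. Intervals of 95% are limma's. The procedure was tested on simulated data. The members and the lists of other TCP genes, partners, targets, clock genes and markers, 83 genes beside the members, were chosen with earlier results of these data known. All members are named, and of other lists up to 4 called genes of largest change per comparison with their values; TOC1, RBR1, CCA1, ICS1 and NIA1 are named beside this rule for a known interaction or a matched site. Sequences are from RefSeq's TAIR10.1; the upstream region of 1 member is not reported here.

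Alternatives were a pseudocount of 0.1, no filter, a filter of RPKM 5, median-of-ratios scaling, quantile normalization, only the groups compared, a replicate block, weights for library quality, and leaving out each library or both that stood apart. Same-numbered libraries of different groups did not in general deviate together: 3 of 23 pairs had a correlation of deviations over 0.1. Among pairs of unlike number, 15 of 67 did. The highest value of all, 0.381, was however between replicates 4 of the dvl1 and rtfl9 quintuples, a number that wild type lacks here.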

Additional observations from a re-analysis of the deposited data

How the results depend on the processing

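The counts of members past the threshold kept their direction in all alternatives. In dvl1-1D against wild type (7 members) the count was 6 to 8 under the settings and 5 to 6 with a library left out; TCP7, TCP14, TCP15, TCP22 and TCP23 passed in all 15 alternatives. In 35S:DVL8 against wild type it was 2, not 0, with weights for library quality and 0 otherwise; the cause was not tested. Between the overexpression lines (4) it was 3 to 4, TCP19 and TCP20 not being tested at RPKM 5. In the overexpression lines against the quintuples (4) it was 3 to 4, and 1 to 4 with a library left out. The test of any difference (6) gave 4 to 6. The counts for both quintuples against wild type and against each other stayed at 0. With the replicate block the counts were 6 for dvl1-1D against wild type and 4 between the overexpression lines. They were 3 for the overexpression lines against the quintuples, 6 for any difference and 0 elsewhere. The numbers did not in general pair the libraries, and 2 of 15 correlated best with their own number. Over all tested genes, the comparisons with few calls depended on the setting: 35S:DVL8 had 28 calls (4 to 306), the dvl1 quintuple 6 (2 to 161), the rtfl9 quintuple 249 (7 to 668) and the quintuples against each other 3 (0 to 6). The share of higher calls was 54.4% in dvl1-1D against wild type and 44.3% after quantile normalization, and 57.3% between the overexpression lines against 44.1% after it and 47.1% with median-of-ratios scaling; 7 and 4 members were still called higher after quantile normalization. With 3 libraries per group, changes of the low members TCP19 and TCP20 were the least precise.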
